A study of Mus musculus and Homo sapiens with 12 samples.

Results

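Collagens are the triple-helical proteins of the extracellular matrix, and their genes were followed here through maps of 4 histone acyl marks. The members were all protein-coding genes whose symbol is COL, a number, A and a number, so that collagen-like genes with other names were left out. These were 44 of 20033 protein-coding genes in the human annotation and 44 of 21883 in the mouse annotation, with 43 symbols in both species, COL21A1 in human alone and Col6a4 in mouse alone. CUT&Tag, which tethers a transposase to a mark through an antibody and sequences the DNA cut around it, gave 12 lists of peaks. Of these, 4 came from CCD841, a line from normal human colon epithelium grown with 1 mM sodium butyrate (NaBu) for 12 to 16 h, with 2 replicates each for butyrylation (Kbu) of H3K18 and of H4K12. The other 8 came from large intestine of male CETP-ApoB-100 transgenic mice, whose age the labels do not give. The H3K18bu and H4K12bu libraries of mice are labelled high fat, high sucrose diet with 5% arabinoxylan, a dietary fibre, and the H3K18ac and H4K12ac (Kac) libraries are labelled high fat, high sucrose alone, each with 2 replicates. By these labels acyl group and diet cannot be told apart in the mouse lists. The methods of the study describe arabinoxylan for all mice on the high fat, high sucrose diet by the end of the experiment, so the labels and the methods differ on the diet behind the Kac libraries. In the methods the group without arabinoxylan is a control on a low fat diet, and the titles of the Kac libraries read cnt. Whether the Kac mice also differed in fat and sucrose cannot be told from these sources. The labels do not say whether replicates were separate cultures or animals, so the spread between them may be technical. No untreated CCD841 list was analysed here, so no value describes an effect of NaBu, and SW480 cells were not analysed here. The mouse chromatin was prepared from pieces of whole frozen tissue, although the label reads colon epithelium, and fewer cells of a type and less of a mark per cell cannot be told apart in such samples.

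Collagen chains assemble in threes in the endoplasmic reticulum after hydroxylation of proline and lysine. Fibrillar collagens (types I, II, III, V, XI, XXIV and XXVII) form the fibres of stroma, and collagen IV forms the network of basement membranes, where the multiplexins COL15A1 and COL18A1 also lie. Transmembrane collagens (XIII, XVII, XXIII and XXV) sit in the plasma membrane, and COL17A1 holds epithelial cells to the basement membrane in hemidesmosomes. FACIT collagens decorate fibrils, collagen VI makes beaded filaments, collagens VIII and X make short-chain networks, and COL7A1 makes anchoring fibrils. In the gut wall the fibrillar chains are made chiefly by mesenchymal cells, and collagen IV by epithelial, endothelial and mesenchymal cells.

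The lists differed in depth, and this bears on every count below. A summit pileup, the number of overlapping reads at the top of a peak, was solved from the deposited fold and p of each peak. Its median was 15, 12, 15 and 7 in the CCD841 lists (H3K18bu replicates 1 and 2, then H4K12bu replicates 1 and 2), which held between 299296 and 299720 peaks. In the mouse Kbu lists, with 50675 to 96432 peaks, 89.2% to 91.4% of peaks had a pileup of 1. The mouse Kac lists were filled to the authors' limit of 300000 with peaks of pileup 1 tied at the lowest listed p, and these ties stopped in the order of the chromosome names. In H4K12ac replicate 2 the 38445 tied peaks lay on 1 chromosome, in H4K12ac replicate 1 the 158414 lay on 5, in H3K18ac replicate 2 the 155849 lay on 6, and in H3K18ac replicate 1 the 216068 lay on 19. The tied Kac peaks were left out, which left 83772 and 144012 peaks for H3K18ac and 141364 and 261178 for H4K12ac. Overlapping peaks of a library were merged to regions, and a region was called shared where it overlapped a region of the other replicate. No test was made, since an exact permutation test of 2 lists against 2 cannot reach a p of 0.05 and the lists give no counts per sample, and every difference below is a description of these libraries.

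In CCD841 cells the starts of collagen genes held fewer regions than the starts of all genes, in all 4 lists. For H3K18bu, 14 of 44 collagen genes (31.8%) in replicate 1 and 12 (27.3%) in replicate 2 had a region within 1 kb of the gene start, beside 40.3% and 45.6% of all protein-coding genes. H4K12bu marked 4 (9.09%) and 9 (20.5%) of 44 collagen starts, beside 27.8% and 27.3%. In H4K12bu replicate 2 only 56.3% of peaks had a q below 0.05, and at that threshold its count fell to 2 (4.55%, beside 17.0%), while the other 3 lists did not change. A region shared by both replicates lay at 8 collagen starts for H3K18bu (18.2%, beside 31.3% of all genes) and at 1 for H4K12bu (2.27%, beside 14.7%). Of the 11 fibrillar genes, 6 (54.5%) and 4 (36.4%) had an H3K18bu start region in replicates 1 and 2, and 1 (9.09%) and 4 (36.4%) an H4K12bu one. This class thus stood above all genes in H3K18bu replicate 1 and H4K12bu replicate 2, and below in the other lists. By shared start regions it lay below all genes in both marks, with 2 of 11 (18.2%) for H3K18bu and 1 (9.09%) for H4K12bu. The start used here is the outermost annotated end of the gene. With the start of the canonical transcript the H3K18bu counts were 15 and 14 and the H4K12bu counts 5 and 11, still below the 41.9%, 47.3%, 28.3% and 27.8% of all genes. With the start of any coding transcript they were 23, 23, 14 and 22 of 44, and collagen genes then stood above all genes in H3K18bu replicate 1 (52.3% against 49.2%) and H4K12bu replicate 2 (50.0% against 40.8%), and below in the other lists. The shared counts were then 14 for H3K18bu (31.8%, beside 38.7%) and 8 for H4K12bu (18.2%, beside 24.0%). With a window of 3 kb around the outermost start, H3K18bu replicate 1 stood at 1.05 times the share of all genes and the other lists at 0.83 to 0.88, and the shared counts were 15 (34.1%, beside 39.3%) and 4 (9.09%, beside 22.4%).

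**Figure D1:**
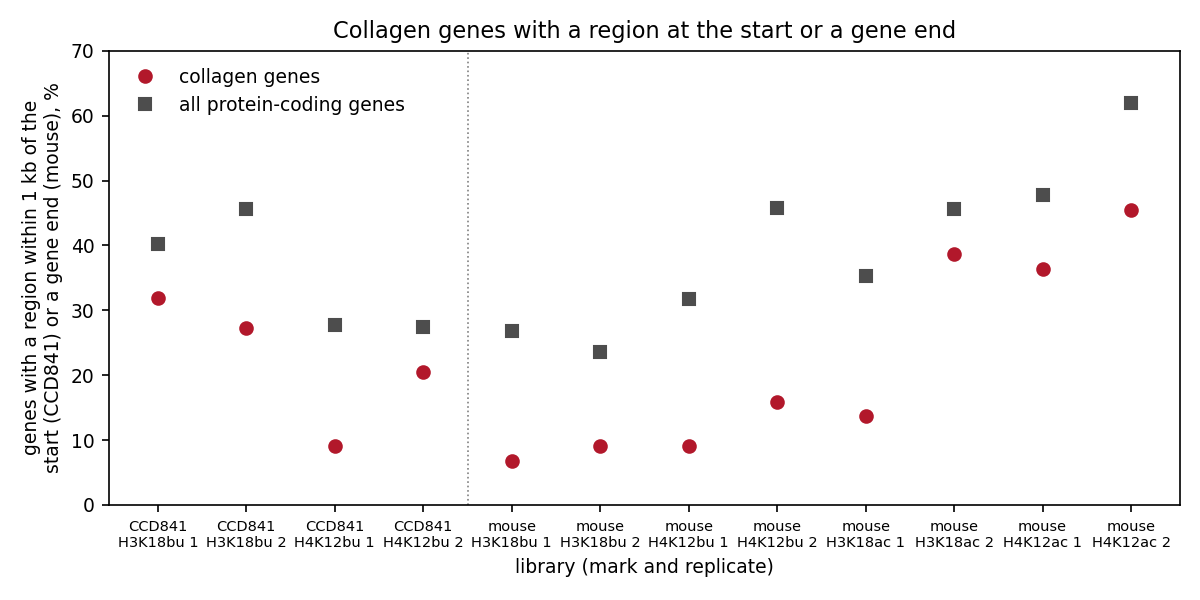
Share of genes (vertical axis, in percent) with a region within 1 kb of the start in CCD841 cells or within 1 kb of either gene end in mouse intestine, for each library (horizontal axis), with red circles for the 44 collagen genes and grey squares for all protein-coding genes. The collagen share lies below the share of all genes in each of the 12 libraries.

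The 8 starts with a shared H3K18bu region belonged to different classes. They were COL1A2 and COL11A1 (fibrillar), COL4A1 (basement membrane), COL6A3 (beaded filament), COL12A1, COL19A1 and COL21A1 (FACIT) and COL28A1. COL6A3, a chain of the collagen VI filament, had the strongest by the lower −log10 p of the replicates, at chr2:237412727-237413603 in hg38, with pileups of 26 and 18 and folds of 7.06 and 6.33 over the local background. By pileup, the shared COL4A1 region described further on was higher. H4K12bu was listed within this stretch at pileups of 12 and 5, and its replicate 2 region lay beyond 1 kb of the start. COL21A1, which decorates fibrils, had pileups of 17 and 12 at its outermost start, which lies 146514 bases from the canonical one. By canonical starts COL21A1 left the shared genes, and COL4A2 and COL5A2 joined them. COL11A1, a minor chain of cartilage fibrils, had 11 and 13. None of the 4 transmembrane genes, COL17A1 among them, had an H3K18bu region at the gene start in either replicate. COL6A1, COL7A1 (the anchoring fibril) and COL18A1 had none at the start in any of the 4 lists. These absences are of the outermost start. With any coding start COL18A1 had a region in each of the 4 lists and a shared one for H4K12bu, and the transmembrane genes COL13A1 and COL17A1 had one in both H3K18bu replicates, with COL13A1 shared for H4K12bu and COL17A1 in both marks.

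The genes of the 2 type I chains differed in what lay within 1 kb of the outermost start. By this start, and by the canonical one, COL1A2 was the single collagen gene with a start region shared by both replicates in both marks, and with any coding start COL4A2, COL12A1, COL16A1 and COL17A1 joined it. For H3K18bu the shared region lay at chr7:94395337-94395704, just inside the gene, with pileups of 13 and 14. For H4K12bu the shared region lay upstream, at chr7:94393584-94393992, with pileups of 10 and 8, where H3K18bu was listed in replicate 1 at 17 and not in replicate 2. COL1A1, whose chain makes up the rest of the type I helix, had an H3K18bu start region in replicate 1, with a pileup of 13, and none in replicate 2 or in H4K12bu. With any coding start COL1A1 counted among the genes with a shared H3K18bu start region as well, so this difference between the chains for H3K18bu depends on which start is used. COL3A1, the type III chain, had 1 in H3K18bu replicate 2 with a pileup of 7 and none in the other 3 lists. The promoter of COL1A2 is shown because it lies between the 2 flanking regions. It is the 250 bases before the gene start, 5′ to 3′ on the strand of the gene, in hg38, at chr7:94394645-94394894 (plus strand). Capitals mark TATAAA, the motif CCAAT and the motif GGGCGG, each on either strand. Read on the other strand, CCAAT appears as ATTGG. In the same way, GGGCGG appears as CCGCCC.
COL1A2 promoter: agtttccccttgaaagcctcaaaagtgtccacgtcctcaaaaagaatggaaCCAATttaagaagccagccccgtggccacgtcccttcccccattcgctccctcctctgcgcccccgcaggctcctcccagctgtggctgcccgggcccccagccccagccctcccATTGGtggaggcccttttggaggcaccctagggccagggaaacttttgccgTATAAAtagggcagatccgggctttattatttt

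The COL1A2 stretch holds TATAAA near the start, CCAAT 2 times and no GGGCGG. Across the family, TATAAA stood in 9 of 44 collagen promoters of this length (20.5%), beside 10.0% of all human promoters. These human promoters precede the outermost annotated start. For COL10A1 and COL14A1, both among the 9, it lies 32615 and 65322 bases from the canonical start, and motifs before canonical starts were not counted. CCAAT stood in 16 (36.4%, beside 33.3%) and GGGCGG in 22 (50.0%, beside 49.05%). TGANTCA, the letters that AP-1 factors read, stood in 2 (4.55%, beside 5.46%). In the 35 mouse collagen genes with a promoter sequence in RefSeq GRCm38.p6 (250 bases before to 50 after the start), TATAAA stood in 5 (14.3%, beside 14.8% of all), CCAAT in 13 (37.1%, beside 42.3%), GGGCGG in 22 (62.9%, beside 49.2%) and TGANTCA in 1 (2.86%, beside 8.12%).

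COL4A1 and COL4A2, the main chains of basement membranes, are transcribed away from each other from a common stretch of chromosome 13. The bases between their canonical starts are shown here, chr13:110307158-110307283 in hg38, 5′ to 3′ on the strand of COL4A1, with the same motifs in capitals.
COL4A1 promoter: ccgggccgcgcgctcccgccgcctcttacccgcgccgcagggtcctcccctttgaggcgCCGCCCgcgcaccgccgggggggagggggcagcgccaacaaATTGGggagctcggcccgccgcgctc

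This stretch of 126 bases was 80.2% G and C and held CCAAT and GGGCGG 1 time each and no TATAAA. The H3K18bu region chr13:110307121-110307462, shared by both replicates, covered it from end to end, with pileups of 27 and 31. H4K12bu was listed there in replicate 1 at 17 and not in replicate 2. A further shared H3K18bu region lay on the COL4A2 side at chr13:110307563-110307636, with pileups of 22 and 35. Because the annotated outer end of COL4A2 lies 1472 bases from its canonical start, this region did not count for COL4A2 by the outermost start, and it did by the canonical start.

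The CpG content of collagen starts was measured beside these counts. The ratio of observed to expected CpG within 1 kb of the start had a median of 0.520 in collagen genes and 0.613 in all genes, and it was below 0.5 in 21 of 44 collagen genes (47.7%) and in 35.8% of all. Among the 23 collagen genes with a ratio of 0.5 or more, 3 had a shared H3K18bu start region (13.0%), beside 38.2% of all genes of that kind. Among the 21 with a lower ratio, 5 had one (23.8%, beside 19.1%). For H3K18bu the lower share at collagen starts thus lay among the CpG-rich starts. For H4K12bu the shared counts were 0 of 23 (beside 16.6%) and 1 of 21 (4.76%, beside 11.2%), below all genes in both classes. The part of CpG content in the start counts was not tested beyond this split.

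Within gene bodies, by contrast, collagen genes of CCD841 cells held regions about as densely as other genes. Collagen genes are long, with a median of 145 kb beside 27.5 kb for all human protein-coding genes, and densities are given per length for this reason. Over the pooled bodies, H3K18bu regions numbered 9.83 and 10.1 per 100 kb in collagen genes and 9.19 and 10.1 in all genes, so that the relative density (collagen over all) was 1.07 and 0.995. For H4K12bu they numbered 10.7 and 13.9 against 11.8 and 14.1, or 0.914 and 0.982. A shared H3K18bu region lay in the body of 40 of 44 collagen genes (90.9%, beside 60.9% of all genes), and a shared H4K12bu region in 36 (81.8%, beside 62.8%). Long genes hold more regions, and among all genes of at least 20 kb the shares were 78.7% and 81.9%, so the H4K12bu share of collagen genes did not stand above that of long genes. These long genes, with a median of 60.2 kb, are still shorter than collagen genes, so the H3K18bu share is not matched for length. Along 5 equal parts of the gene from start to end, the shared H3K18bu regions of collagen bodies fell 21.9%, 22.9%, 21.3%, 11.9% and 21.9%, and the shared H4K12bu regions 15.3%, 20.3%, 22.4%, 18.5% and 23.5%. In all genes of at least 20 kb the H3K18bu regions fell 22.9%, 19.2%, 19.4%, 19.2% and 19.3% along the same parts. Their H4K12bu regions fell 17.2%, 18.7%, 20.0%, 20.8% and 23.4%, so the larger H4K12bu share toward the gene end was found in long genes as well. An exon was touched by 18.8% of the 314 shared H3K18bu regions in or near collagen genes (beside 20.4% of those in any gene) and by 25.6% of the 344 shared H4K12bu regions (beside 23.8%).

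Relative density differed between the classes. The multiplexins lay between 2.22 and 2.86 over the 4 lists and the short-chain network genes between 1.47 and 1.94. The anchoring fibril gene COL7A1, a class of 1 gene, stood at 1.04 and 0.948 for H3K18bu and at 4.35 and 1.81 for H4K12bu, so it exceeded the multiplexins in H4K12bu replicate 1. Fibrillar genes lay between 1.03 and 1.23 and collagen IV genes between 0.907 and 0.929, and in both classes 2 genes held most H4K12bu regions. COL5A1 and COL27A1 held 82 and 69 of the 205 fibrillar regions in replicate 1, and 73 and 49 of 207 in replicate 2. COL4A1 and COL4A2 held 45 and 72 of the 130 collagen IV regions, and 49 and 73 of 158. The median collagen IV gene held 3.18 and 5.73 H4K12bu regions per 100 kb. Transmembrane genes lay between 0.759 and 1.35, collagen VI genes between 0.707 and 1.30 and FACIT genes between 0.469 and 0.765. Over pooled bodies the ranges of multiplexins, fibrillar genes and FACIT genes did not overlap. Medians over single genes gave this order for H3K18bu, with 13.8 and 13.0 regions per 100 kb in fibrillar and 7.95 and 9.63 in FACIT genes. For H4K12bu they did not, with 5.21 and 10.1 in fibrillar and 8.30 and 9.92 in FACIT genes. Both classes then lay below the H4K12bu medians of all genes, 12.0 and 14.7. The order of single genes was alike in replicates, with a Spearman correlation across the 44 genes of 0.904 for H3K18bu and 0.891 for H4K12bu, where the points share genes, and each order moved with base composition (0.552 and 0.491 between density and the G and C content of the body). Over the 11651 protein-coding genes of at least 20 kb the replicates correlated at 0.853 and 0.835, and density with G and C content at 0.353 and 0.306.

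**Figure D2:**
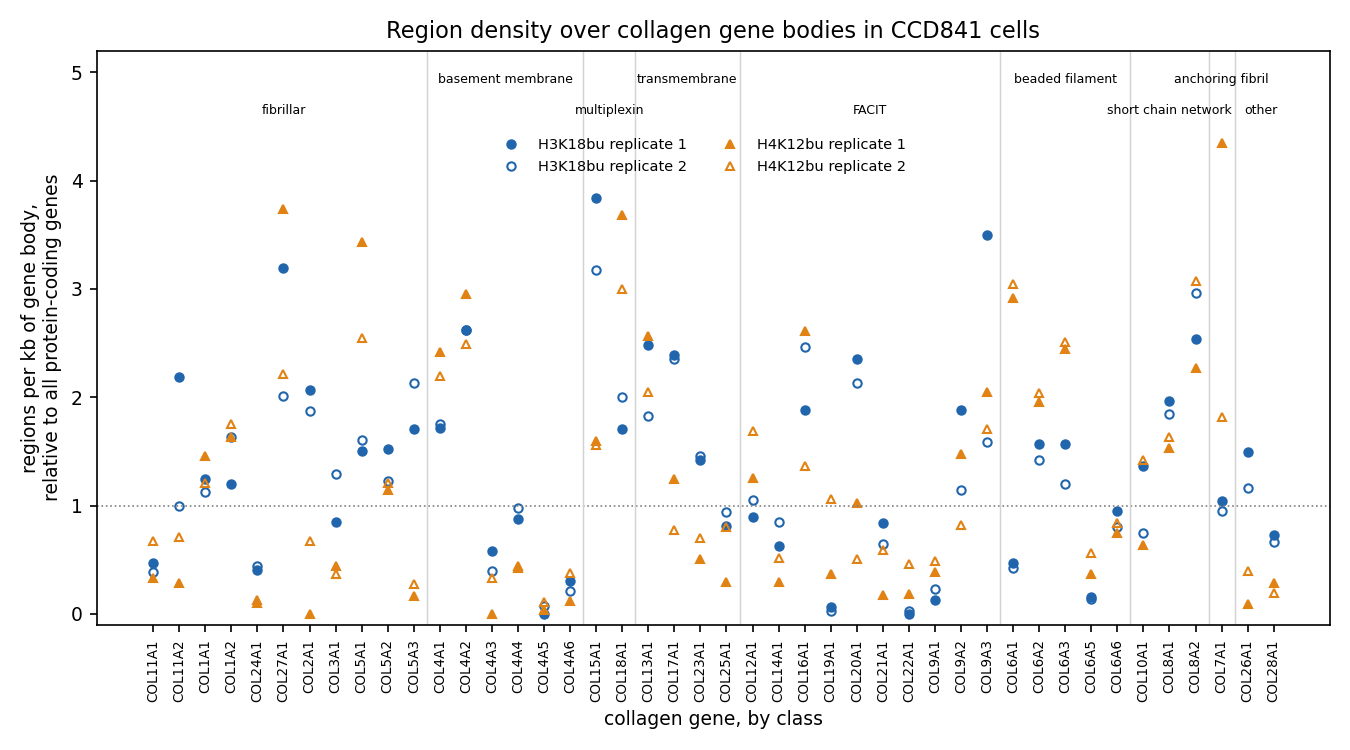
Relative density of regions (vertical axis, regions per kb of gene body divided by the value of all protein-coding genes in the same library) for the 44 collagen genes (horizontal axis, by class), with circles for H3K18bu, triangles for H4K12bu, filled for replicate 1 and open for replicate 2. COL4A1 and COL4A2 lie between 1.72 and 2.95 in the 4 libraries, and COL4A5 at 0.110 or less.

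The 3 head-to-head pairs of collagen IV genes differed in density, with COL4A1 and COL4A2 above the other 4 genes. COL4A2 held 50 and 55 H3K18bu regions and 72 and 73 H4K12bu regions over its 207 kb, a relative density of 2.49 to 2.95 in the 4 lists, and COL4A1 reached 1.72 to 2.42. COL4A3 and COL4A4, whose chains serve the basement membranes of kidney and ear, held 0 to 0.580 and 0.420 to 0.977. COL4A5 and COL4A6, the pair on the X chromosome, held 0 to 0.110 and 0.120 to 0.374, and COL4A5 had 0, 2, 1 and 4 regions over 258 kb. Genes on the X chromosome were poor in regions as a whole, at 0.431 to 0.540 of the density of all genes in the 4 lists, and COL4A5 and COL4A6 lay below this too. No shared region of either mark lay in COL4A3 or COL4A5. The values of the first pair did not overlap with those of the other 4 genes, while the ranges of COL4A3 and COL4A6 overlapped, and COL4A6 lay above COL4A3 in both H4K12bu replicates.

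Among fibrillar genes COL27A1, a chain of cartilage, and COL5A1, a chain that sets fibril width, were densest for H4K12bu. COL27A1 held 46 and 32 H3K18bu regions and 69 and 49 H4K12bu regions over 157 kb. COL1A1 held 2 and 2 H3K18bu and 3 and 3 H4K12bu regions over 17.5 kb, and COL1A2 held 4 and 6, and 7 and 9, over 36.3 kb. COL3A1 held 3 and 5 H3K18bu regions and 2 and 2 H4K12bu regions, and none of its H4K12bu regions was shared by both replicates. Per length the type I chains lay above all genes in each list (1.13 to 1.45 for COL1A1, 1.20 to 1.76 for COL1A2), and COL3A1 lay between 0.369 and 1.29. COL22A1, a chain of tissue junctions, was nearly empty of H3K18bu, with 0 and 1 region over 326 kb, and held 7 and 21 of H4K12bu. Per length it lay below all genes in H4K12bu too, at 0.183 and 0.457, and its body held 3 shared H4K12bu regions.

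The 2 marks parted at some collagen genes, as they did at other long genes. Relative density was higher for H3K18bu in both replicates than in either H4K12bu replicate for 18 of the 42 collagen genes of at least 20 kb (42.9%, beside 28.2% of all such genes). It was higher for H4K12bu in the same sense for 13 (31.0%, beside 40.6%), and in 11 the replicates of the marks overlapped. Over the 44 genes the Spearman correlation of the 2 marks was 0.547, beside 0.376 over the 11651 protein-coding genes of at least 20 kb, so the marks were no less alike in their order over collagen genes. H3K18bu led at COL15A1 (3.84 and 3.17 against 1.60 and 1.55), at COL17A1 (2.39 and 2.35 against 1.25 and 0.779) and at COL5A3, where 8 and 11 H3K18bu regions stood against 1 and 2 of H4K12bu. COL26A1 had 27 and 23 against 2 and 11. H4K12bu led at COL18A1, the other multiplexin (1.70 and 2.00 for H3K18bu against 3.68 and 3.00), at COL5A1 (28 and 33 regions against 82 and 73), at COL7A1 (3 and 3 against 16 and 8) and at COL6A1 (1 and 1 against 8 and 10).

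COL6A1, COL6A2, COL6A3 and COL6A5 of the collagen VI filament all stood on the H4K12bu side. COL6A2 and COL6A3 held 5 and 5, and 13 and 11, H3K18bu regions, and 8 and 10, and 26 and 32, H4K12bu regions. COL6A6 overlapped between the marks, at 14 and 13 against 14 and 19. H4K12bu replicate 2 held 282656 regions beside 207129 in replicate 1, and relative densities take out this overall scale. They do not take out all differences between the replicates, since sparse genes such as COL19A1 stood higher in replicate 2 (0.369 and 1.07) and dense genes such as COL27A1 lower (3.74 and 2.21). The median over single genes, unlike the pooled value, stood apart from that of all genes, with 12.8 and 11.6 H3K18bu regions per 100 kb against 6.89 and 8.68 for all genes, and with 10.4 and 11.7 H4K12bu regions against 12.0 and 14.7. The gap of H4K12bu replicate 2 changed with the peaks counted, and the reason was not tested. At a q below 0.05 its medians were 7.37 in collagen genes and 7.39 in all genes. With as many of the strongest regions as the other lists they were 9.13 and 9.53.

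**Figure D3:**
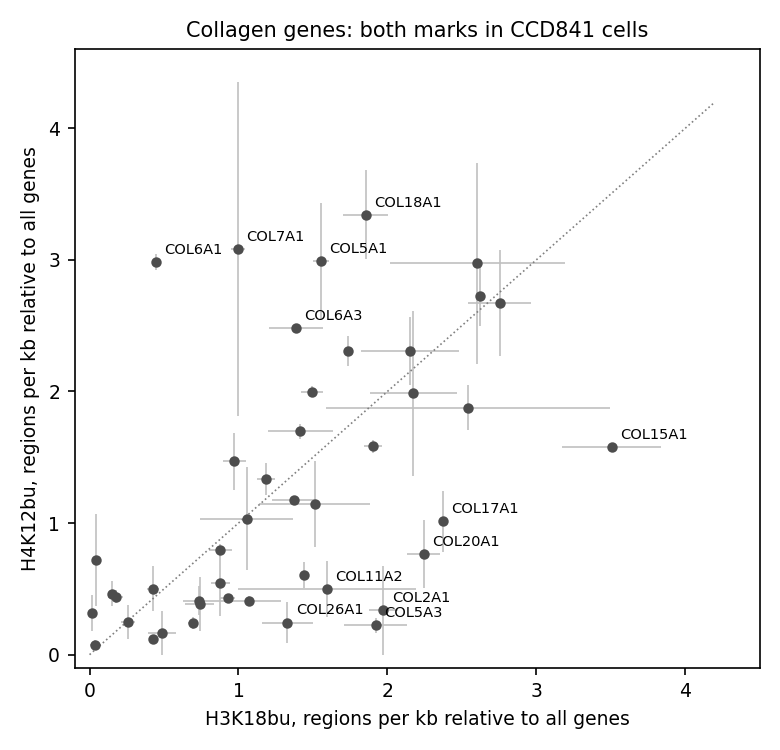
Relative density of H3K18bu (horizontal axis) and of H4K12bu (vertical axis) for each collagen gene in CCD841 cells, where points are means of 2 replicates, bars reach to both replicates and the dotted line marks equal values. COL6A1, COL7A1 and COL5A1 lie above the line and COL15A1, COL17A1 and COL5A3 below it.

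The 3 strongest shared H3K18bu regions in collagen genes of CCD841 cells, ranked by the lower −log10 p of the replicates, lay on tandem repeats, and so did the strongest shared H4K12bu region. In each shared region the best match of the sequence with itself, moved by 2 to 60 bases, was taken over 100 bases, and a match of 80% or more was called a tandem repeat. The 3 H3K18bu regions lay in introns of COL23A1 and COL17A1 (transmembrane) and COL5A1. They are shown because they top the list. Each line gives 200 bases of the plus strand of hg38, from the window with the best match, and capitals mark the 12 bases that recur most often in it. The stretches lie at chr5:178585487-178585686, chr9:134654445-134654644 and chr10:104035986-104036185.
COL23A1 region: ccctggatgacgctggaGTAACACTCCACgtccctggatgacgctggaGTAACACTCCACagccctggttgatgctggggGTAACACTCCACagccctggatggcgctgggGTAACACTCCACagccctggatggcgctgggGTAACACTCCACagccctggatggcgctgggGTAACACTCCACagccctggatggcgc
COL5A1 region: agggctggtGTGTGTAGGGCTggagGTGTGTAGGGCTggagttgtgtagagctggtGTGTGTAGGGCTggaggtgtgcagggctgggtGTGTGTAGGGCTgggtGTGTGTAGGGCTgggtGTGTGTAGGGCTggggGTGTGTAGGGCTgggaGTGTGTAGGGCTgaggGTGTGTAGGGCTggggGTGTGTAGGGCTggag
COL17A1 region: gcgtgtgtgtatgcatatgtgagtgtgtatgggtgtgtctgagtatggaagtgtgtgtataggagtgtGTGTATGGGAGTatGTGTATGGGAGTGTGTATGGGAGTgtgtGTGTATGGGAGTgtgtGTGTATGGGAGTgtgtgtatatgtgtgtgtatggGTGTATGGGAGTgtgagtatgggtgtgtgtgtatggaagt

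The COL23A1 region, chr5:178585376-178586171 in intron 1, repeated a unit of 31 bases at 100% over its best 100 bases. For H3K18bu its pileup reached 114 and 98, and for H4K12bu 53 and 22. It ranked 8th among all 108536 shared H3K18bu regions of the genome, and its H4K12bu counterpart ranked 45th among 90476. The COL5A1 region, chr9:134653590-134655450 in intron 1, repeated every 16 bases at 95%, with pileups of 56 and 50 for H3K18bu and 31 and 12 for H4K12bu. The COL17A1 region, chr10:104035726-104036390 in intron 48, repeated at 84% with a period of 50 bases, with pileups of 69 and 44, and 64 and 22. All 3 were listed in each of the 4 libraries. By the same ranking COL23A1 also led for H4K12bu, while the next 4 H4K12bu regions, in COL5A1, COL4A2 and COL18A1, matched themselves at 50% or less.

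Tandem repeats were rare among the other shared regions. They made up 8 of the 314 shared H3K18bu regions in or within 1 kb of collagen genes (2.55%, beside 1.00% of those in any gene) and 3 of the 20 strongest (15.0%). For H4K12bu they made up 15 of 344 (4.36%, beside 1.32%) and 2 of the 20 strongest (10.0%). Among the strongest 1% of all shared regions of the genome they made up 5.16% for H3K18bu and 10.7% for H4K12bu, so strong regions on repeats were found outside collagen genes too. Reads of repeats can align to several copies, and the part of alignment in these pileups was not tested. The next strongest H3K18bu regions were not repeats. Of ranks 4 to 7, all 4 lay in introns of COL4A2, at chr13:110396846-110397394, chr13:110340567-110341475, chr13:110411952-110412706 and chr13:110322321-110323591, with lower pileups of 39, 42, 42 and 41. TGANTCA stood in the central 300 bases of 42 shared H3K18bu regions of collagen genes (13.4%, beside 14.2% in any gene) and of 30 shared H4K12bu regions (8.72%, beside 10.9%).

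**Figure D4:**
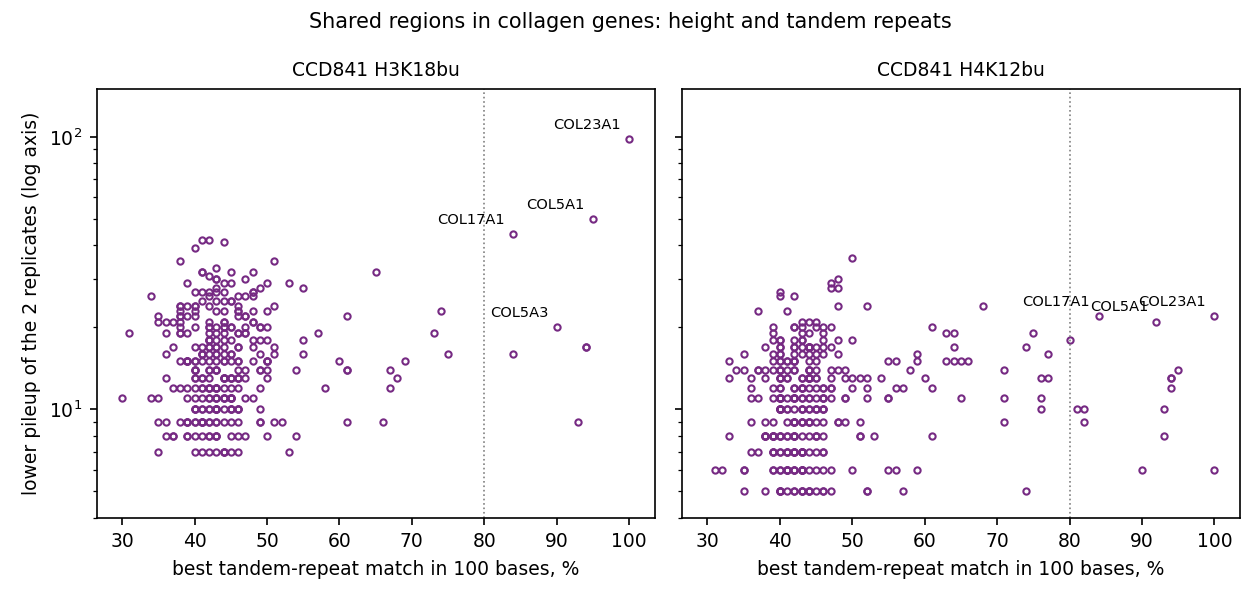
Lower of the 2 replicate pileups (vertical axis, logarithmic) against the best tandem-repeat match over 100 bases (horizontal axis, in percent) for each shared region in or within 1 kb of a collagen gene, H3K18bu on the left and H4K12bu on the right, with a dotted line at 80%. The 3 highest H3K18bu points, COL23A1, COL5A1 and COL17A1, lie right of the line.

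Genes that modify and fold collagen chains, and the collagen receptors, held H3K18bu start regions more often than collagen genes did, and the genes for processing, turnover and fibril binding did not stand apart in the same way. Of the 47 genes of these groups, 23 (48.9%) and 24 (51.1%) had an H3K18bu region at the start, and 20 (42.6%) had a shared one, beside the 40.3%, 45.6% and 31.3% of all genes and the 31.8%, 27.3% and 18.2% of collagen genes. Among the 16 genes for chain modification and folding the shared count was 12, with P4HA1, P4HA2 and P4HA3 (prolyl hydroxylase chains), PLOD1 and PLOD2 (lysyl hydroxylases), SERPINH1 (the collagen chaperone) and MIA3 (export of collagen from the endoplasmic reticulum). Of 7 receptors, 4 had one, the integrin chains ITGA1, ITGA2, ITGA11 and ITGB1. Of 13 genes for processing and cross-linking, 3 had one, ADAMTS3, LOXL4 and TLL2, of 7 for turnover 1, MMP9, and of 4 fibril-bound proteoglycans none. For H4K12bu the whole list had 14 (29.8%) and 11 (23.4%) start regions and 4 (8.51%) shared ones, beside 27.8%, 27.3% and 14.7% of all genes, so the list as a whole lay near or below the background. The 16 genes for modification and folding stood above it here too, with 8 (50.0%) in each replicate and 4 shared (25.0%). These shared ones, COLGALT1, P3H1, P4HA1 and PPIB, were all those of the list.

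The CCD841 lists were also set beside markers of cell types, given the label colon epithelium. Of 10 epithelial markers, 1 (VIL1) had a shared H3K18bu start region and 2 (KRT8 and KRT18) a shared H4K12bu one. EPCAM, CDH1, KRT19, KRT20 and CDX2 had no start region in any of the 4 lists. Of 10 fibroblast markers, 4 (FAP, FBN1, S100A4 and TWIST2) had a shared H3K18bu one and 2 (FBN1 and S100A4) a shared H4K12bu one. PDGFRB, THY1 and DCN had none in any of the 4 lists, and PDGFRA and LUM had one in H3K18bu replicate 2 alone. Beside these, 31.3% and 14.7% of all genes had a shared start region. In the single libraries, H3K18bu start regions lay at 1 and 4 of the epithelial and at 5 and 7 of the fibroblast markers. H4K12bu start regions lay at 2 and 4 of the epithelial and at 4 and 3 of the fibroblast markers, so the epithelial list stood above the fibroblast list in H4K12bu replicate 2 alone. The identity of the cells was not tested by this. Of 6 smooth muscle markers 2 had a shared start region in each mark, and of 5 endothelial and 5 immune markers 1 each.

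In mouse large intestine collagen genes held regions at their ends less often than all genes did, and less densely over their pooled bodies, in all 8 lists. Strand is not given for all mouse genes, so both gene ends were searched. An H3K18bu region lay within 1 kb of an end in 3 and 4 of 44 collagen genes (6.82% and 9.09%, beside 26.8% and 23.6% of all genes). An H4K12bu region did so in 4 and 7 (9.09% and 15.9%, beside 31.8% and 45.7%). H3K18ac regions marked 6 and 17 (13.6% and 38.6%, beside 35.4% and 45.6%), and H4K12ac regions 16 and 20 (36.4% and 45.5%, beside 47.8% and 62.0%). Shared regions lay at an end of 1, 1, 1 and 4 collagen genes for H3K18bu, H4K12bu, H3K18ac and H4K12ac, beside 6.84%, 16.4%, 18.2% and 26.4% of all genes. With every tied Kac peak kept, collagen genes stood at 1.07 and 1.03 times the share of all genes in H3K18ac, so this direction holds for H3K18ac only without the ties.

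Over their bodies collagen genes held H3K18bu regions at 0.557 and 0.602 of the density of all genes. The H4K12bu ratio was 0.492 and 0.513, the H3K18ac ratio 0.549 and 0.627 and the H4K12ac ratio 0.608 and 0.656. The ranges of Kbu and Kac lists overlapped, but 89.2% to 91.4% of the Kbu peaks and none of the Kac peaks used had a pileup of 1. With regions of pileup 2 or more alone, the H3K18bu ratios became 0.378 and 0.288 and the H4K12bu ratios 0.249 and 0.128, from 7, 4, 4 and 5 collagen regions, and these lay below the Kac ratios. Mouse collagen genes are long as well (a median of 114 kb beside 17.2 kb), and against genes of at least 20 kb the ratios were 0.557 to 0.684 over the 8 lists. The median over single genes gave another order, since many short genes hold no region. It was 0.743 and 0.710 regions per 100 kb for H3K18bu in collagen genes, beside 0 and 0 in all genes and 2.45 and 1.74 in genes of at least 20 kb. It also lay above all genes in H4K12bu replicate 1 (0.891 against 0) and H3K18ac replicate 1 (1.78 against 1.48) and below them in the other 4 lists, and it lay below the genes of at least 20 kb in all 8. In the same way 54.5% of collagen genes held an H3K18bu region in replicate 1, beside 45.8% of all genes and 68.6% of those of at least 20 kb. With the same number of strongest regions in each library, the 4 medians below all genes lay above them. The medians were then 1.73 against 0.614 (H4K12bu replicate 2), 0.693 against 0 (H3K18ac replicate 2) and 1.81 and 1.43 against 0 (H4K12ac). A shared H3K18bu region lay in the body of 4 collagen genes (9.09%, beside 13.9% of all genes) and a shared H4K12bu region in 4 (9.09%, beside 23.2%). Shared H3K18ac regions lay in 12 (27.3%, beside 31.7%) and shared H4K12ac regions in 16 (36.4%, beside 43.3%). Among genes of at least 20 kb these shares were higher, at 22.9% (H3K18bu), 32.7% (H4K12bu), 48.9% (H3K18ac) and 66.6% (H4K12ac). With every tied Kac peak kept the Kac shares stood above all genes, at 1.40 and 1.14 times. In the Kbu lists, whose peaks are mostly of pileup 1, the absence of a region at a gene does not show that the mark was absent, and the part of depth in it was not tested. At a q below 0.05, no H3K18bu region was left in any mouse collagen gene, and 0.960% and 0.599% of all genes kept one at an end, so few were to be found in 44 genes. H4K12bu then marked the ends of 1 collagen gene in replicate 1 (2.27%, beside 2.02%), the 1 list in which the collagen share was not below, and of none in replicate 2 (beside 5.73%). H4K12ac replicate 1 also kept none (beside 12.6%). Fibrillar genes lay between 0.408 and 0.699 over the 8 lists, collagen IV genes between 0.291 and 0.724 and transmembrane genes between 0.404 and 0.721, and these ranges overlapped. FACIT genes lay between 0.411 and 0.666 and collagen VI genes between 0.192 and 0.862. The multiplexins went the other way, between 1.43 and 2.49 and so above all genes in 7 of the 8 lists, and at 0.689 in H3K18bu replicate 1. The short-chain genes lay between 0.184 and 1.17 and Col7a1 between 0 and 3.87.

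**Figure D5:**
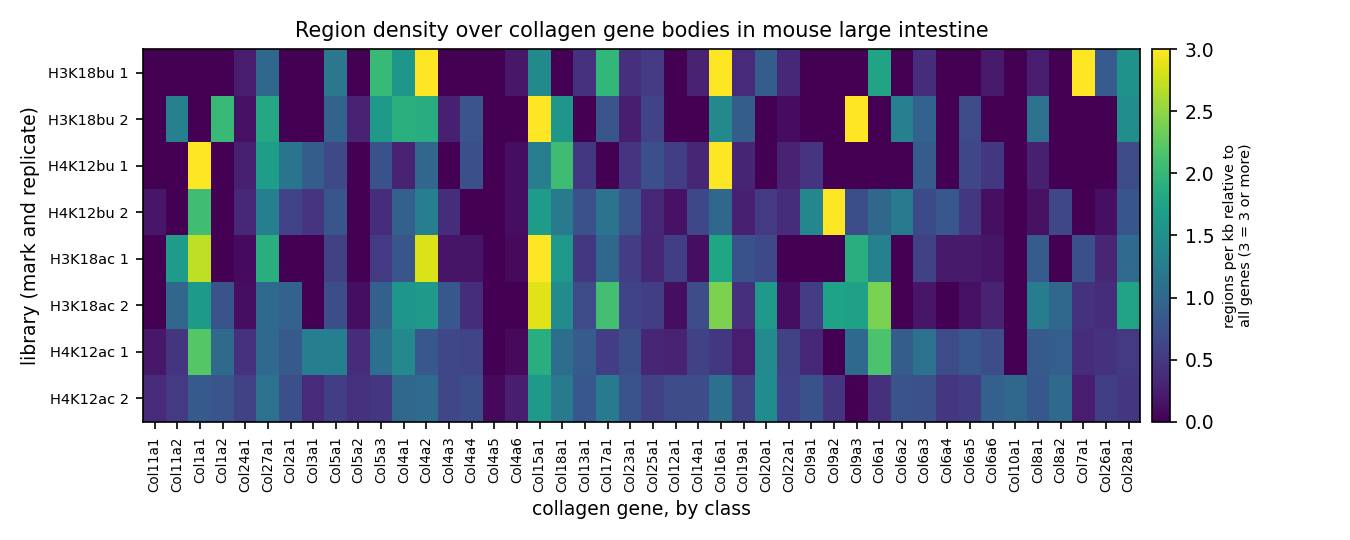
Relative density of regions (colour, regions per kb of gene body divided by the value of all protein-coding genes in the same library, capped at 3) for the 44 mouse collagen genes (horizontal axis, by class) in the 8 mouse libraries (vertical axis). Col15a1 and Col27a1 exceed 1 in every library, and Col4a5 is at 0 in all but H4K12ac replicate 2.

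Of the 44 genes, 2 exceeded the density of all genes in each of the 8 lists, Col15a1 (1.28 to 3.46) and Col27a1 (1.00 to 1.89), and 18 exceeded it in none. Of all mouse genes, 8.35% exceeded it in each list and 22.8% in none, and of those of at least 20 kb 12.8% and 18.8%, beside 2 (5.0%) and 18 (45.0%) of the 40 collagen genes of that length. Col15a1, the multiplexin that was also densest for H3K18bu in CCD841 cells, held 5 and 10 H3K18bu, 4 and 10 H4K12bu, 16 and 22 H3K18ac and 16 and 24 H4K12ac regions. Col4a2 lay between 0.817 and 3.78 and Col4a1 between 0.296 and 1.91. Col4a3 held 0 to 0.814 and Col4a4 0 to 0.788, and these ranges overlap with that of Col4a1. Col4a5 held 0 to 0.0668 and Col4a6 0 to 0.254. Both lie on the X chromosome, where all genes together held 0.269 to 0.428 of the density of all genes in the 8 lists. Among the fibrillar genes of stroma, Col3a1 had no region in the 4 libraries of H3K18bu and H3K18ac, 1 and 1 in H4K12bu and 4 and 2 in H4K12ac. Col1a2 had 0 and 2 H3K18bu, no H4K12bu, 0 and 2 H3K18ac and 3 and 4 H4K12ac regions. Col1a1 had no H3K18bu region, 3 and 2 H4K12bu, 2 and 2 H3K18ac and 3 and 2 H4K12ac regions, and 1 of its H4K12bu regions was shared, at chr11:94944024-94944334 in mm10 with pileups of 1 and 1. Per length, Col1a1, of 16.8 kb, exceeded all genes in 5 of the 8 lists (0 to 6.04), Col1a2 in 2 and Col3a1 in 1. Col7a1, the anchoring fibril, had no H4K12bu region and 4 and 0 for H3K18bu.

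Few Kbu regions of mouse collagen genes were found in both replicates. For H3K18bu 8 shared regions lay in Col25a1 (3), Col28a1 (3), Col5a1 and Col4a2, and for H4K12bu 5 lay in Col25a1 (2), Col28a1, Col5a1 and Col1a1. The end of Col23a1 added 1 for each mark, at chr11:51584449-51584656 and chr11:51584397-51584925, with pileups of 1 and 1 for H3K18bu and 3 and 2 for H4K12bu. Col23a1 had an end region in 7 of the 8 libraries, the most of any collagen gene. It also had the 1 shared H3K18ac end region of the family, at chr11:51584076-51584315 with pileups of 2 and 4, again at the 3′ end. The most constant site was in Col25a1, a transmembrane collagen known from brain, at chr3:130522111-130522391. It was listed in all 8 libraries, with H3K18bu pileups of 2 and 1, H4K12bu pileups of 1 and 1, H3K18ac pileups of 13 and 10 and H4K12ac pileups of 4 and 3. The Col5a1 site chr2:27961296-27961561 was listed in the 4 Kbu libraries, with pileups of 1, 1, 2 and 1, and in 1 Kac library, H4K12ac replicate 2, at 2.

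Kac regions shared by both replicates numbered 24 in the bodies of 12 collagen genes for H3K18ac and 27 in 16 genes for H4K12ac. Col28a1 held 6 of the H3K18ac regions, and 3 of them, the first at chr6:8023476-8023856, reached a lower pileup of 5. By the lower −log10 p of the replicates, the strongest shared H3K18ac site outside Col25a1 was in Col8a1, a short-chain collagen of vessels and the eye. It lay at chr16:57686163-57686626 with pileups of 4 and 5 and a lower −log10 p of 6.58. A Col4a2 site followed at 5.38, and the Col28a1 sites reached 4.21 at most. The 4 genes with a shared H4K12ac region at an end were Col4a3, Col4a4, Col9a3 and Col14a1. The region chr1:82586829-82587599, with pileups of 2 and 4, served both Col4a3 and Col4a4, which start next to each other. Other ends had a region in both replicates at places that did not overlap. For H3K18ac these were Col25a1 (pileups of 3 and 3), Col11a2 (2 and 3) and Col6a1 (2 and 2), and for H4K12ac Col20a1 (3 and 5) and Col16a1 (2 and 3). Per length, shared H3K18ac regions were densest in Col9a3, Col28a1 and Col20a1 (4.15, 3.05 and 2.92 per 100 kb), and shared H4K12ac regions in Col15a1, Col2a1 and Col17a1 (3.79, 3.43 and 2.19). Most of these values rest on 1 to 4 regions of low pileup. Col17a1 held 3 and 1 H3K18bu, 0 and 3 H4K12bu, 2 and 7 H3K18ac and 2 and 8 H4K12ac regions, and Col18a1 held 0 and 5, 7 and 8, 8 and 12, and 10 and 20.

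In the mouse lists epithelial markers held end regions more often than collagen genes did. Of 10 epithelial markers, 8 and 10 had an H3K18bu region at a gene end, 6 and 8 an H4K12bu region, 8 and 9 an H3K18ac region and 5 and 6 an H4K12ac region. The first 3 marks stood above the shares of all genes given above, while the H4K12ac counts lay at the 47.8% and 62.0% of all genes. Shared end regions lay at 4, 3, 6 and 2 of the 10, beside 6.84%, 16.4%, 18.2% and 26.4% of all genes. Of 10 fibroblast markers the counts were 3 and 1, 2 and 4, 3 and 3, and 2 and 4, and of 6 smooth muscle markers 0 and 0, 1 and 1, 1 and 1, and 4 and 3. Over bodies the epithelial genes held 14.6 and 20.8 H3K18bu regions per 100 kb and the fibroblast genes 3.62 and 2.77, beside 3.30 and 2.75 in all genes and 1.84 and 1.65 in collagen genes. These rest on 21 and 30 epithelial, 17 and 13 fibroblast and 100 and 90 collagen regions. The epithelial bodies are thus the shortest in total, and these densities are not matched for gene length. For H4K12ac the epithelial genes (11.1 and 17.4) and the smooth muscle genes (11.1 and 15.5) lay side by side. The share of epithelial cells in the tissue pieces was not measured, and its part in the low collagen values was not tested. The 46 mouse genes for building and binding collagen had end regions in 7 and 8 (H3K18bu, 15.2% and 17.4%), 9 and 24 (H4K12bu, 19.6% and 52.2%), 9 and 22 (H3K18ac, 19.6% and 47.8%) and 20 and 30 (H4K12ac, 43.5% and 65.2%). They lay above all genes in replicate 2 of H4K12bu, H3K18ac and H4K12ac and below in the other 5 lists. Shared ones lay at 0, 1, 4 and 10 (0 to 21.7%), below all genes in each mark.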

How the data were processed

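CUT&Tag peak lists of 12 libraries were analysed. Per the submitters' processing notes, reads were handled with bcl2fastq 2.17.1, cutadapt 1.9.1, Bowtie2 2.3.1 and MACS2 2.1.0 on hg38 and mm10. Peaks were called by the authors library by library, with the ENCODE ATAC-seq pipeline and no control, at p = 0.01 and with a limit of 300000, and artifact regions were removed. The authors deposited for each peak a fold ratio over the local background, a −log10 p and a −log10 q. No list gives read counts per gene, so depth is known only through pileups, solved from the deposited fold and −log10 p (whole within 0.01 of −log10 p for at least 99.9997% of peaks).

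Genes were the protein-coding genes of GENCODE 44 (GRCh38) and RefSeq GRCm38.p6. Overlap meant at least 1 base. Relative density is regions per kb of pooled gene bodies over that of all genes of the same list. Single genes were named by fixed groups (COL1A1, COL1A2, COL3A1, COL4A1, COL4A2, COL6A1, COL7A1, COL17A1, COL18A1), the 5 strongest starts or ends, the 3 densest per mark and, of the fixed groups, those with no region. Pathway and marker lists served for comparison. Other genes, such as those where the marks differ, were chosen after their values were seen. The members and lists were chosen with earlier results of these data known. Pileup solving and interval counts were tested on simulated data. Alternatives were a q below 0.05, a pileup of at least 2, equal list lengths, a 3 kb window, other starts, unmerged peaks, covered bases, trimmed bodies, long background genes, all tied Kac peaks and leaving out each replicate. Scripts ran in Python 3.11.15 with scipy 1.17.1, pandas 2.3.3 and numpy 2.4.6.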

Additional observations from a re-analysis of the deposited data

Results flagged for a closer look

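The median collagen gene of CCD841 cells lay above the median of all genes for H3K18bu in both replicates, by 5.90 and 2.95 regions per 100 kb, and below it for H4K12bu in both, at -1.58 and -2.94. These values drew attention because every H3K18bu library moved against every H4K12bu library, and the difference between the marks was not tested, since an exact permutation test of 2 libraries against 2 cannot reach a p of 0.05. With covered bases in place of regions the H4K12bu values were -0.0476 and 0.0923 covered kb per 100 kb, and the direction was then mixed. With regions of q below 0.05 the value of H4K12bu replicate 2, where 56.3% of peaks reach that q, was -0.0241, and with the same number of strongest regions in each library it was -0.401, while replicate 1 stayed at -1.58 in both. Against genes of at least 20 kb the H3K18bu values became 4.97 and 2.33, and those of H4K12bu -3.20 and -4.28.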

How the results depend on the processing

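At CCD841 starts the collagen share was below that of all genes in 4 of 4 libraries, and in 2 with the start of any coding transcript, where the mean ratio of collagen to all genes became 1.01 for H3K18bu and 1.01 for H4K12bu. This alternative and every listed Kac peak were chosen after seeing the data. With every listed Kac peak, the mouse marks with a lower collagen share of genes with a shared body region fell from 4 to 2, and ratios turned to 1.05 (H3K18ac, gene ends), 1.40 (H3K18ac, shared bodies) and 1.14 (H4K12ac, shared bodies). Against genes of at least 20 kb the H4K12bu share of collagen genes with a shared body region stood at 0.999 of the background in place of above it, so 1 of the 2 CCD841 marks was below. The H3K18bu body density of CCD841 cells was 0.995 without replicate 1 and 1.07 without replicate 2. The cause was not tested. Of the values per mark these 7 turned, 67 moved past the spread allowed and 126 did not, all with their direction kept; the spread was 1 SD of the replicates or, for shared regions, 1.5 times. Mouse medians and medians of covered bases are not among these values. The 4 mouse medians above that of all genes lay below that of genes of at least 20 kb, by -1.71 and -1.03 (H3K18bu), -1.51 (H4K12bu replicate 1) and -1.73 (H3K18ac replicate 1) regions per 100 kb. With the same number of strongest regions in each library, the other 4 mouse medians turned to above all genes. They then exceeded all genes by 1.11 (H4K12bu replicate 2), 0.693 (H3K18ac replicate 2) and 1.81 and 1.43 (H4K12ac). No paired analysis was possible because no result comes from a test, and no label says that a shared replicate number marks a shared culture or animal. Peak lists cut at 300000, Kbu lists of pileup 1 and 2 libraries per mark limit all counts.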
